A study of Danio rerio with 4 samples.

Results

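Red blood cells enter a heart suspension with the blood, and their most abundant transcripts can also reach the droplets of other cells. The genes described here were alas2 (ENSDARG00000038643), hbae3 (ENSDARG00000079305) and a beta-type embryonic globin (ENSDARG00000113599), 3 of the 25434 genes counted. They were chosen by identifier, as the erythroid genes whose molecules were to be divided between erythroid cells and free RNA. The annotation used for names gave the beta-type globin only a human symbol that 7 zebrafish identifiers share, so it is called the beta-type globin. Near-identical globin copies can divide or lose reads in counting, and the level of each single globin is uncertain in that respect.

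Whole hearts of zebrafish embryos were dissociated at 48 and 72 h post-fertilization (hpf) and their cells were sequenced with droplet-based 3′ single-cell RNA sequencing. At each stage 1 library came from sqet31Et x Tg(myl7:mRFP) and 1 from sqet33mi59BEt x Tg(myl7:mRFP). All 4 libraries carried the mRFP transgene driven by the myl7 promoter of heart muscle, and both sqet lines are EGFP enhancer traps. Each library pooled hearts of many embryos, and the study treated the 2 lines of a stage as pseudo-replicates, so the spread between libraries of a stage also holds the line, the dissociation and the run.

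Heme is built in developing red cells from glycine and succinyl-CoA, and alas2 encodes the erythroid enzyme of the first and rate-limiting step. The alpha-type chain encoded by hbae3 and beta-type embryonic chains pair in the hemoglobin of the first, primitive red cells. In zebrafish these cells keep their nucleus and circulate through the beating heart at both stages studied. Their RNA is dominated by globin, so a red cell that breaks in the suspension releases mainly globin molecules.

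The matrices held 52447 barcodes, between 9955 and 18469 per library, of which 34676 carried a cluster name from the authors. Unique molecular identifiers (UMIs, 1 per captured RNA molecule) summed to between 24073652 and 109489623 per library, and the median barcode of sqet31Et and sqet33mi59BEt held 4323 and 6432.5 UMIs at 48 hpf but 1479 and 960 at 72 hpf. Hemoglobin genes together took 1.62% and 1.27% of the UMIs at 48 hpf. At 72 hpf they took 0.402% in sqet31Et and 4.91% in sqet33mi59BEt, so this last library stood apart from the other 3. Any pair of libraries shared 28 to 71 barcode sequences.

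The 3 genes were measured in every library at very different depths. For alas2, sqet31Et and sqet33mi59BEt gave 959 and 1680 UMIs at 48 hpf, against 218 and 997 at 72 hpf. For hbae3 the counts were 206276 and 351698 at 48 hpf, against 60812 and 394995 at 72 hpf. For the beta-type globin they were 159831 and 186749, then 49067 and 255031. As CPM, the count divided by the UMIs of its library and scaled to 1e6, alas2 stood at 15.2 and 15.3 at 48 hpf, against 3.80 and 41.4 at 72 hpf. The 72 hpf libraries therefore lay on both sides of the 48 hpf libraries. The same order held for hbae3, with 3266 and 3212 CPM at 48 hpf against 1060 and 16408 CPM at 72 hpf, and for the beta-type globin, with 2531 and 1706 CPM against 855 and 10594 CPM. In such library sums, fewer red cells and less RNA per red cell cannot be told apart.

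How widely a gene was found over the barcodes differed sharply between alas2 and the globins. Barcodes with at least 1 alas2 UMI made up 1.61% and 1.85% of barcodes at 48 hpf, but 0.541% and 4.29% at 72 hpf. Barcodes with an hbae3 UMI made up 42.9% and 60.0% at 48 hpf, and 13.3% and 89.0% at 72 hpf. For the beta-type globin the shares were 36.1% and 46.9%, then 15.5% and 82.6%. Globin molecules were thus found in many barcodes of every library, most of all in sqet33mi59BEt at 72 hpf, whereas alas2 was seen in few.

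The share of hemoglobin among the UMIs of a barcode separated the barcodes that held most of these molecules. Barcodes in which the 16 hemoglobin identifiers took at least 10% of the UMIs, the limit above which the authors removed cells, are called hemoglobin-rich. They numbered 111 and 96 at 48 hpf, then 94 and 1049 at 72 hpf, 1350 in all or 2.57% of the barcodes, and none had a cluster name. Their share of the library was 1.12% (95% exact binomial interval 0.918 to 1.34) and 0.865% (0.701 to 1.06) at 48 hpf, and 0.509% (0.411 to 0.622) and 8.12% (7.65 to 8.60) at 72 hpf. These intervals, like all others given, cover counting error only. The 48 hpf mean of 0.990% ± 0.177 (SD, n = 2) and the 72 hpf mean of 4.31% ± 5.38 (SD, n = 2) differed by less than the spread at 72 hpf, with a two-sided exact permutation p of 1, where 2 against 2 libraries allow no p below 0.33. Without sqet33mi59BEt at 72 hpf the difference of 3.32 percentage points turned to -0.48.

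**Figure D1:**
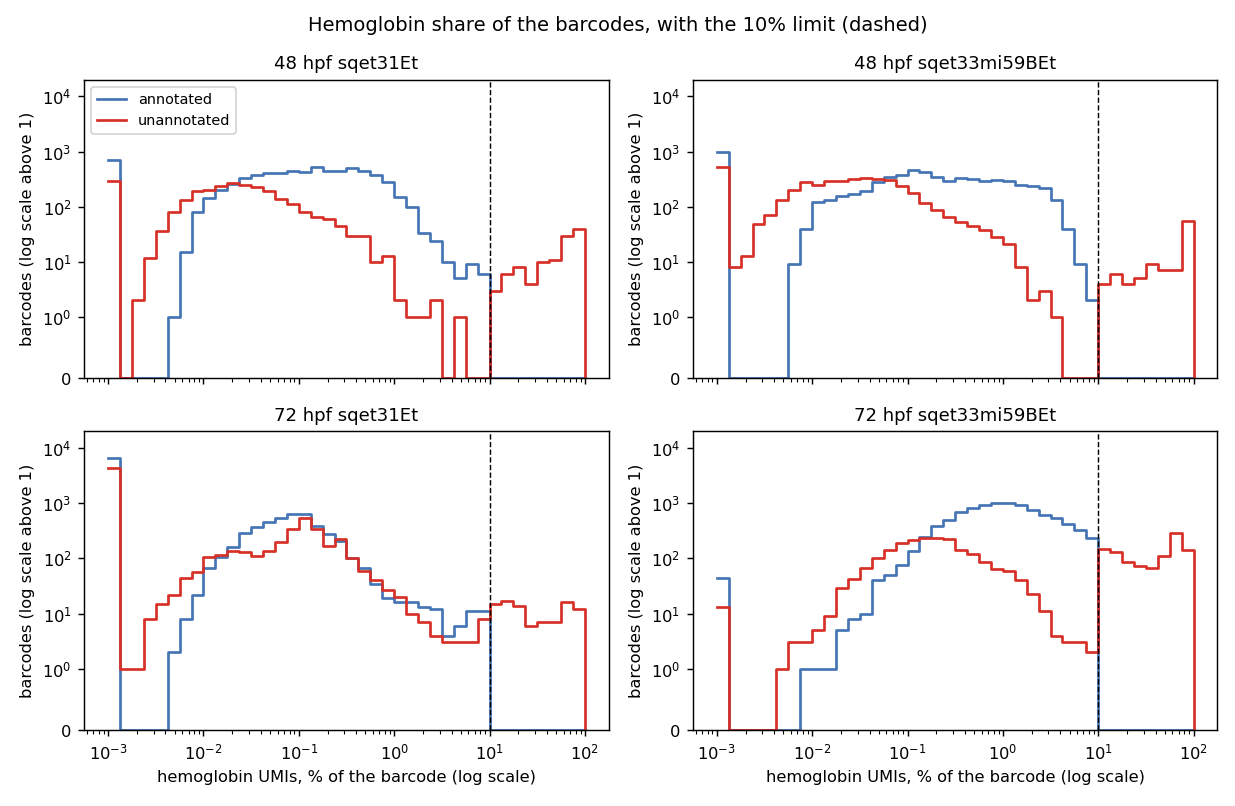
Histograms of the percent of UMIs from hemoglobin genes in each barcode, on a log axis, one panel per library, with barcodes that held no hemoglobin UMI in the leftmost bin and the 10% limit as a dashed line. Barcodes right of the line numbered 111, 96, 94 and 1049, and in sqet33mi59BEt at 72 hpf the bulk of all barcodes also lay further right than in the other libraries.

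The hemoglobin-rich barcodes held 88.7% of all alas2 UMIs in the series, 91.7% of hbae3 and 91.0% of the beta-type globin. For the globins this follows from the choice, since they are among the genes that set the 10% limit. For alas2, which was not used in the choice, the share was 91.4% and 92.4% at 48 hpf, against 62.4% and 85.8% at 72 hpf. The barcodes with a cluster name, by contrast, held 7.37% of the alas2 UMIs, 6.62% of hbae3 and 6.92% of the beta-type globin. Most molecules of all 3 genes therefore lay in barcodes that the published clusters do not include.

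The next comparison asked whether the barcodes chosen by hemoglobin also carried other red cell transcripts. UMIs were summed per library over hemoglobin-rich and over all other barcodes, with every hemoglobin gene removed from counts and totals before edgeR's quasi-likelihood test with library as a block. In hemoglobin-rich barcodes alas2 reached 2474 and 2750 CPM (without hemoglobin) at 48 hpf, against 819 and 1079 CPM at 72 hpf. In the other barcodes it stood at 1.33, 1.19, 1.44 and 6.43 CPM in the same order of libraries, so the groups did not overlap. The difference was 9.85 on the log2 scale (SE 0.50), or 921-fold, with a Benjamini-Hochberg adjusted p of 5.7e-17 in edgeR and the same direction in 4 of 4 libraries. Of the 15883 genes tested, 11.4% were called in either direction, 6.55% as higher in hemoglobin-rich barcodes and 4.89% as lower.

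Genes of the red cell program were higher in hemoglobin-rich barcodes in nearly every case. Of the 8 measured genes of heme synthesis, 7 were higher. Besides alas2 they included ppox, which encodes a late enzyme of the pathway (6.33, SE 0.68), urod (5.19, SE 0.58) and uros (4.96, SE 0.36), with edgeR adjusted p of 7.6e-09, 2.1e-08 and 5.9e-13. The exception was alas1, the form of the first enzyme that most tissues use, with a log2 difference of -0.11 and an adjusted p of 0.85. Its level was 70.5, 69.1, 90.4 and 121 CPM in hemoglobin-rich barcodes against 118, 96.2, 99.5 and 99.6 in the others, so the groups overlapped. The median log2 difference of the list was 4.89, against -0.36 over all genes tested.

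Of the 8 measured genes of iron and heme transport, 7 were higher, with a median log2 difference of 4.01. They included blvrb, a reductase of biliverdin and flavins (6.84, SE 0.49, edgeR adjusted p 3.7e-13), and tfr1a, the transferrin receptor needed by zebrafish red cells (4.70, SE 0.48, adjusted p 2.2e-09). The fitted value of steap3, an iron reductase of endosomes, was 6.43, but it rested on 20 UMIs in hemoglobin-rich barcodes, 4, 2, 1 and 13 by library, beside 0 to 0.452 CPM in the other barcodes, and is no bound. The tfr1a paralog tfr1b stood at -1.36 with an adjusted p of 0.18. Of 12 measured genes on the list of erythroid regulators, 10 were higher, among them hemgn, a nuclear protein of blood-forming cells (8.44, SE 0.75, adjusted p 7.9e-11), the transcription factor klf1 (7.30, SE 0.82, adjusted p 1.9e-08) and tmod4 (8.69, SE 0.55, adjusted p 1.3e-14), a tropomodulin that caps actin filaments and is no transcription factor. On the same list klf3 was lower (-1.29, adjusted p 0.0097) and zfpm1 was not called. All 8 measured genes of the red cell membrane and its enzymes were higher, led by the carbonic anhydrase cahz (10.13, SE 0.54, adjusted p 1.5e-16), the nucleotidase nt5c2l1 (9.89, SE 0.59, adjusted p 3.1e-15) and epb41b, of the membrane skeleton (8.59, SE 0.84, adjusted p 9.4e-10). Over the 4 lists 32 of 36 genes were higher, 1 was lower and 3 were not called.

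**Figure D2:**
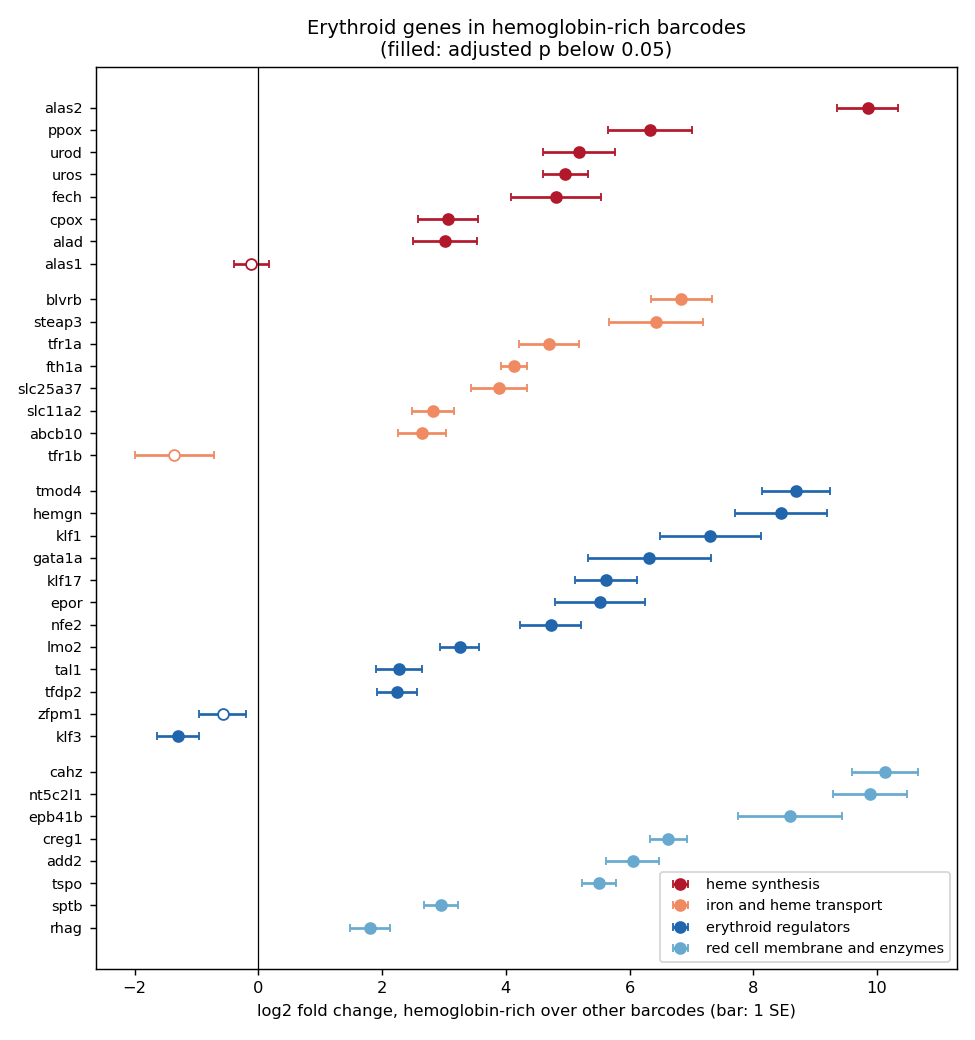
Log2 difference between hemoglobin-rich and other barcodes, hemoglobin genes removed, for the 36 measured genes of 4 lists, with bars of 1 SE from the edgeR fit over 4 libraries and filled points for an adjusted p below 0.05. The point of alas2 lies at 9.85, and alas1, tfr1b, klf3 and zfpm1 are the genes at or left of 0.

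The hemoglobin-rich barcodes themselves differed between libraries, and alas2 differed with their depth. Their median barcode held 7097 and 20310 UMIs at 48 hpf but 1675.5 and 1003 at 72 hpf. At 48 hpf the median barcode contained 885 and 4367.5 hbae3 UMIs, 489 and 2039 UMIs of the beta-type globin, and 6 and 17 alas2 UMIs. At 72 hpf the medians were 93 and 143 for hbae3, 72.5 and 82 for the beta-type globin, and 0 in both libraries for alas2. The share of mitochondrial UMIs in the median barcode was 1.89% and 0.793% at 48 hpf, against 14.5% and 5.80% at 72 hpf. The part of depth and of RNA quality in these differences was not tested.

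An alas2 UMI was found in 82.0% and 93.8% of the hemoglobin-rich barcodes at 48 hpf and in 35.1% and 40.5% at 72 hpf. With each barcode thinned to 500 UMIs, the shares were 36.9% and 44.8% at 48 hpf against 10.6% and 18.1% at 72 hpf, and the stages did not overlap. Thinning does not make the groups alike in hemoglobin. It took 65.6% and 80.6% of the UMIs of the median hemoglobin-rich barcode at 48 hpf, against 24.5% and 46.6% at 72 hpf. The part of this in the alas2 shares was not tested. For endothelial cells, which should lack the gene, the corresponding thinned shares were 0.0966%, 0.0436%, 0.0859% and 0.327%. Barcodes in which hemoglobin took at least 50% of the UMIs, numbering 75, 64, 31 and 497, carried 10.4 and 21.4 alas2 UMIs each at 48 hpf and 3.45 and 1.37 at 72 hpf. The maximum in a single barcode was 46 and 50 alas2 UMIs at 48 hpf, and 13 and 9 at 72 hpf.

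The authors named 1 cluster Erythrocytes, with 175 and 368 cells at 48 hpf against 147 and 689 at 72 hpf. Its cells had passed the limit on hemoglobin, so in the median cell 1.54%, 2.67%, 1.32% and 6.58% of the UMIs came from hemoglobin genes. Of the 10 measured erythroid markers that are not hemoglobin genes, alas2 among them, 7 were higher in this cluster than in the other annotated cells in all 4 libraries. The 10 summed to 259, 249, 686 and 998 CPM in the cluster, on 30, 65, 160 and 544 UMIs, against 89.3, 75.3, 97.1 and 331 CPM in the other annotated cells. All 10 were also higher in the hemoglobin-rich barcodes than in the other annotated cells in each library. The clusters were made from these same expression values, and the paper named this one by hemoglobin genes, alas2 and hemgn. The count of 7 is therefore a description, and for neither count is the share over all genes given here.

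Markers of other cell types were present in the cluster as well. Heart muscle markers summed to 3653, 2910, 647 and 2286 CPM, against 12147, 3151, 3893 and 2612 CPM in the other annotated cells, close to level in both sqet33mi59BEt libraries. Endothelial markers summed to 760, 452, 553 and 675 CPM against 1007, 1340, 948 and 1223 CPM. Markers of fibroblasts and epidermis summed to 484, 674, 180 and 969 CPM against 542, 576, 1352 and 1104 CPM. Leukocyte markers summed to 25.9, 23.0, 8.57 and 29.4 CPM against 8.95, 12.6, 24.3 and 28.3 CPM. In the cluster they rested on 17, 2 and 8 UMIs of coro1a, lcp1 and ncf1 over all libraries. Markers of blood precursors summed to 8.64, 11.5, 214.3 and 185 CPM against 1.77, 3.09, 121 and 214 CPM. Of these, myb gave 1 UMI in the cluster in each 48 hpf library. Both thrombocyte markers measured, itga2b and mpl, were at 0. Heart muscle markers in hemoglobin-rich barcodes summed to 2452, 16559, 831 and 2068 CPM (without hemoglobin). The other annotated cells stood at 12158, 3156, 3894 and 2637. Those of fibroblasts and epidermis summed to 539, 142, 1813 and 387 against 542, 577, 1352 and 1115. Those of blood precursors summed to 130, 103, 139 and 165 against 1.78, 3.10, 122 and 216. The endothelial and leukocyte sums were lower than in those cells in every library. The part of other cell types in the levels of the cluster and of the hemoglobin-rich barcodes was not tested.

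The Erythrocytes cells held few molecules of alas2. Their counts were 5 and 7 UMIs at 48 hpf and 9 and 35 UMIs at 72 hpf, or 43.2, 26.8, 38.6 and 64.2 CPM. In the endothelial cells, the largest cluster with 10612 cells, alas2 stood at 2.33, 3.33, 1.75 and 5.87 CPM, below the Erythrocytes value in every library. An alas2 UMI was present in 2.86%, 1.63%, 3.40% and 4.50% of the Erythrocytes cells, whose median depth was 601, 604.5, 1029 and 679 UMIs. The corresponding shares of endothelial cells were 0.918%, 1.53%, 0.344% and 0.617% at median depths of 4364, 5611, 1821 and 868 UMIs. At 500 UMIs per cell the Erythrocytes shares were 1.71%, 1.63%, 1.36% and 2.18%, above the endothelial shares at that depth in every library.

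The globins were also higher in this cluster, from a much higher level elsewhere. The Erythrocytes cells carried 3.16 and 4.82 hbae3 UMIs each at 48 hpf (95% exact Poisson intervals 2.90 to 3.43 and 4.596 to 5.05) and 10.1 and 18.3 at 72 hpf (9.59 to 10.6 and 18.02 to 18.7). Endothelial cells carried 0.672, 1.41, 0.140 and 2.37 hbae3 UMIs each, so the Erythrocytes level was 4.70, 3.41, 72.1 and 7.74 times as high. For the beta-type globin the Erythrocytes cells carried 2.25, 3.02, 10.8 and 11.3 UMIs each, or 4.25, 3.73, 70.4 and 6.50 times the endothelial level. In sqet31Et at 72 hpf a single Erythrocytes barcode with 22440 UMIs held 658 of the 1588 UMIs of the beta-type globin and 5 of the 9 alas2 UMIs. Without it the cluster carried 6.37 UMIs of the beta-type globin and 9.88 of hbae3 per barcode in that library.

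Because the clusters were made from these same expression values, their levels are given as a description. By mean CPM over the 4 libraries, alas2 was highest in Erythrocytes at 43.2 ± 15.6 (SD, n = 4), and next in the cells named Unclassified at 7.003 ± 7.14 (SD, n = 4), and these ranges did not overlap. Every later pair of neighbours among the 18 clusters overlapped within 1 SD. No alas2 UMI was found in the 707 Mesoderm progenitors or the 241 Neuronal cells, which allows shares of up to 0.424% and 1.24% of cells with a UMI. Of the 72 sums of a cluster in a library, 31 held no alas2 UMI.

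For hbae3 the Erythrocytes cluster was likewise first, at 10276 ± 8645 CPM (SD, n = 4), followed by Resident fibroblasts at 3715 ± 4405, and the lowest level was that of the Hematopoietic precursor cluster at 250.4 ± 278. For the beta-type globin Erythrocytes stood at 7173 ± 4927 CPM (SD, n = 4), followed again by Resident fibroblasts. Unlike for alas2, all neighbours in both globin orders overlapped within 1 SD, Erythrocytes and the next cluster included.

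Outside the blood clusters the globin UMIs per barcode varied less between clusters of a library than over the 4 libraries. Between the 48 hpf libraries alone this did not hold, since their medians lay closer than the clusters of sqet33mi59BEt did. The spread over clusters was smaller in sqet31Et than in sqet33mi59BEt. Over the 15 clusters not of blood, hbae3 ranged from 0.500 to 0.973 UMIs per barcode in sqet31Et and from 1.1 to 4.10 in sqet33mi59BEt at 48 hpf. At 72 hpf the ranges were 0.102 to 0.167 in sqet31Et and 1.94 to 7.07 in sqet33mi59BEt. The highest cluster was 1.95 and 1.63 times the lowest in sqet31Et at 48 and 72 hpf, but 3.71 and 3.64 times in sqet33mi59BEt. The medians over these clusters were 0.699, 1.41, 0.148 and 2.71 UMIs per barcode. For the beta-type globin the highest cluster was 2.0, 5.02, 2.36 and 3.36 times the lowest, and the medians were 0.507, 0.810, 0.184 and 1.93 UMIs per barcode. At 48 hpf the highest hbae3 value in sqet33mi59BEt was that of Resident fibroblasts, 4.10 beside 4.82 in Erythrocytes, and at 72 hpf it was that of Unclassified cells.

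**Figure D3:**
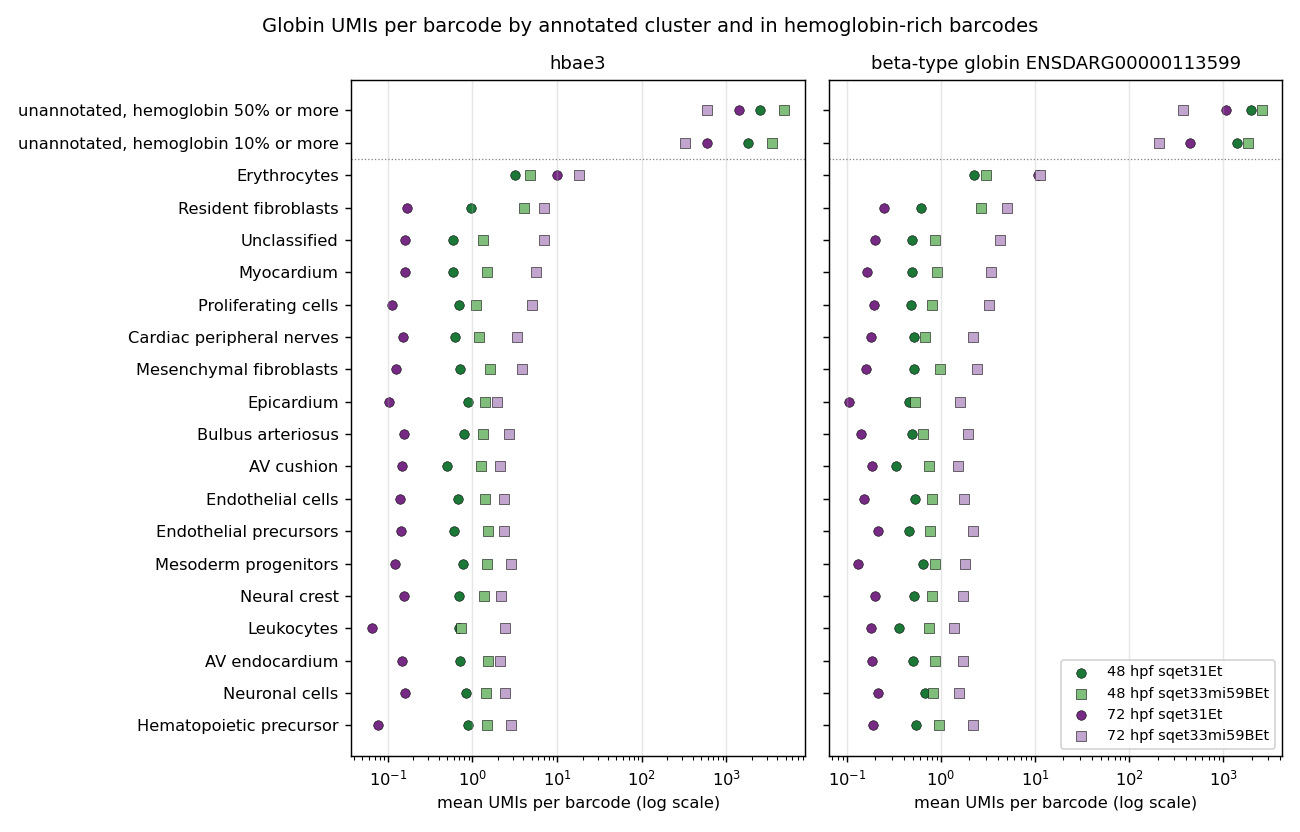
UMIs per barcode of the globins in the clusters and in hemoglobin-rich barcodes, on a log axis, with each point 1 library. For hbae3 the clusters not of blood span 0.102 to 0.167 UMIs per barcode in sqet31Et at 72 hpf and 1.94 to 7.07 in sqet33mi59BEt at 72 hpf, below the Erythrocytes cells and far below the hemoglobin-rich barcodes of the same library.

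Clusters of shallow cells showed high CPM. Over the 17 clusters other than Erythrocytes, hbae3 ranged from 86.0 to 555 CPM and from 161 to 5168 CPM at 48 hpf, and from 9.42 to 126 CPM and from 650.0 to 9306 CPM at 72 hpf. Across these 17 clusters, which share their library, the log of hbae3 CPM and the log of the median depth had Pearson's r of -0.94, -0.81, -0.89 and -0.86. Depth is the divisor of CPM, so a negative r is built in where UMIs per barcode vary little. Within the endothelial cells the variance of hbae3 counts was 2.03, 2.93, 1.34 and 2.10 times the mean, against 2021, 2175, 1482 and 448 times in hemoglobin-rich barcodes. Endothelial cells without an hbae3 UMI made up 59.1%, 43.8%, 88.6% and 15.3%, where Poisson counts of the same mean would leave 51.1%, 24.4%, 86.9% and 9.36%.

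In endothelial cells and Myocardium the share of cells with an hbae3 UMI differed more over the 4 libraries than between these cell types. In endothelial cells hbae3 was seen in 40.9%, 56.2%, 11.5% and 84.7%, and at 500 UMIs per cell in 12.6%, 16.8%, 3.81% and 65.5%. In Myocardium, another type that should lack the gene, the thinned shares were 16.3%, 28.0%, 3.46% and 75.5%, at median depths before thinning of 2734.5, 1832, 1824 and 891 UMIs. The Erythrocytes cells lay above both at 81.7%, 95.7%, 72.8% and 100% after thinning, and at 88.0%, 97.6%, 85.0% and 100% before. The source of the hbae3 UMIs in the endothelial and myocardial cells was not tested.

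RNA from 1 source keeps its genes in 1 ratio within a library, so alas2 was next counted per 1000 UMIs of hbae3 and the beta-type globin together. Over all barcodes this ratio was 2.62 and 3.12 at 48 hpf, and 1.98 and 1.53 at 72 hpf. The stage means were 2.87 ± 0.354 (SD, n = 2) and 1.76 ± 0.318 (SD, n = 2), and the stages did not overlap. The two-sided exact permutation p of 0.33 is the smallest that 2 against 2 libraries can give. With all hemoglobin genes as the denominator the ratios were 0.936, 1.21, 0.945 and 0.844, and the stages overlapped (exact permutation p 0.667).

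Within the hemoglobin-rich barcodes the ratio was 2.48 (95% exact interval 2.32 to 2.65) and 3.04 (2.89 to 3.20) at 48 hpf, and 1.39 (1.17 to 1.65) and 1.52 (1.42 to 1.63) at 72 hpf. In the Erythrocytes cells it was 5.29 (1.71 to 12.4), 2.43 (0.975 to 5.01), 2.93 (1.34 to 5.57) and 1.72 (1.2 to 2.39) in the same order. All 4 of these intervals held the value of the hemoglobin-rich barcodes of their library. They rested on 5, 7, 9 and 35 alas2 UMIs and were wide. In every library but sqet31Et at 72 hpf they also held the ratio of the clusters not of blood, given below. In those libraries they do not tell these groups apart. In sqet31Et at 72 hpf the Erythrocytes ratio was 1.69 without the barcode that held 5 of its 9 alas2 UMIs.

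In the 15 clusters not of blood the ratio was higher in 3 libraries, at 4.75 (3.36 to 6.52), 4.79 (3.75 to 6.04) and 9.94 (6.83 to 13.98), intervals that did not reach those of the hemoglobin-rich barcodes. In sqet33mi59BEt at 72 hpf, the library with the most globin per barcode in these clusters, it was 1.42 (1.13 to 1.76) and the intervals overlapped. Barcodes with less than 0.1% hemoglobin, a class set by the genes of the denominator, had ratios of 10.3, 8.59, 20.8 and 2.91, the highest of any class except in sqet33mi59BEt at 48 hpf, where barcodes of 5 to 10% reached 8.65. Barcodes with at least 50% hemoglobin had ratios of 2.33, 2.90, 1.40 and 1.42. The ratios of the clusters not of blood rested on 38, 72, 33 and 81 alas2 UMIs. They lay above those of the hemoglobin-rich barcodes beyond counting error in 3 of the 4 libraries, and within it in the remaining one. The intervals do not cover the spread of UMIs between barcodes, and the source of these alas2 molecules was not tested.

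**Figure D4:**
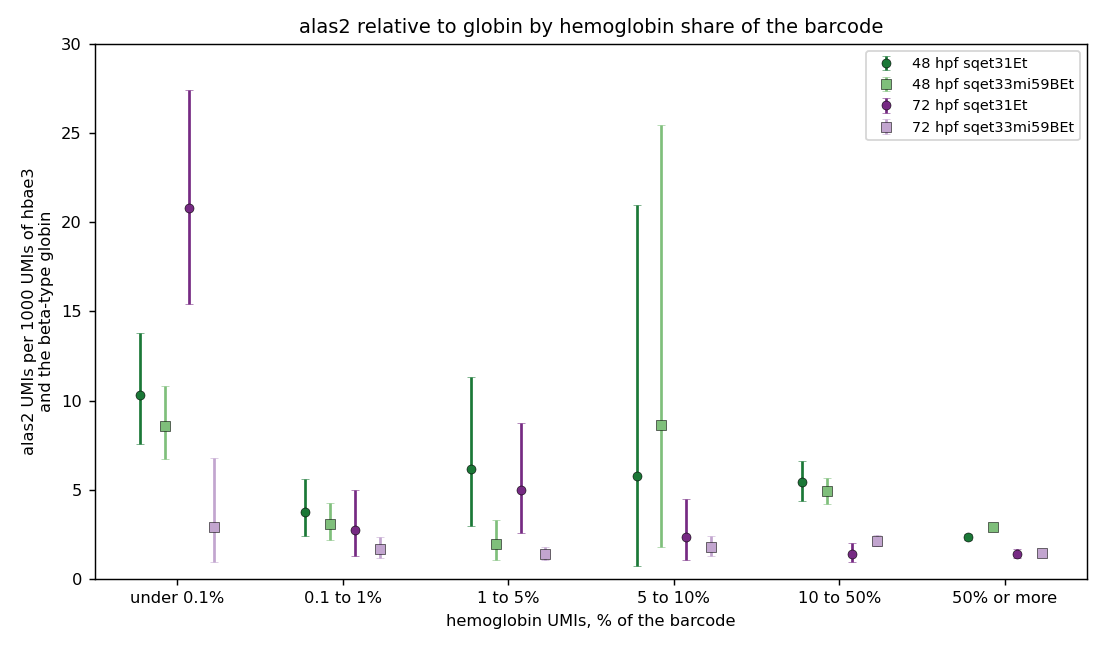
UMIs of alas2 per 1000 UMIs of hbae3 and the beta-type globin, by the percent of hemoglobin in the barcode, 1 point per library, with 95% exact intervals for counting error. Barcodes under 0.1% hemoglobin reach 10.3, 8.59 and 20.8 in 3 libraries and 2.91 in sqet33mi59BEt at 72 hpf, and barcodes of at least 50% hemoglobin lie at 2.33, 2.90, 1.40 and 1.42.

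Barcodes outside the hemoglobin-rich group that held alas2 numbered 69 and 115 at 48 hpf and 67 and 129 at 72 hpf. Of these, 61, 102, 59 and 118 held a single alas2 UMI. No UMI of hbae3 or the beta-type globin accompanied it in 16, 26, 43 and 1 of them. They were deeper than the rest, with median depths of 6879, 7759, 2827 and 1099 UMIs against 4294, 6400, 1477 and 956 UMIs in barcodes without alas2. The part of depth in the ratios of the preceding paragraphs was not tested.

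The balance of the globins was compared in the same groups, as the share of hbae3 in the sum of hbae3 and the beta-type globin. In hemoglobin-rich barcodes it was 56.3%, 65.5%, 57.1% and 60.8%, and in the Erythrocytes cells 58.5%, 61.5%, 48.3% and 61.9%. In the 15 clusters not of blood it was 56.0%, 62.6%, 46.3% and 60.3%, within 3 percentage points of the hemoglobin-rich barcodes in every library but sqet31Et at 72 hpf. In that library the share of the Erythrocytes cells rested on the single barcode rich in the beta-type globin, and was 60.8% without it.

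Barcodes without a cluster name fell into classes by the limits the authors stated. Those of at least 2500 detected genes, 1575, 2968, 715 and 167 in number, carried 0.913, 1.60, 0.676 and 7.07 hbae3 UMIs each, with 23, 41, 22 and 7 alas2 UMIs in all. Those with at least 30% mitochondrial UMIs carried 0.61, 1.36, 0.26 and 2.30 hbae3 UMIs each. Those that met none of the exclusion limits, 981, 929, 1513 and 1464 in number, carried 0.68, 1.36, 0.21 and 2.54 hbae3 UMIs each and 16, 6, 5 and 13 alas2 UMIs in all. In sqet31Et at 72 hpf all of these classes lay above the range of the clusters not of blood, and in the other libraries they lay within it or, for 1 class, level with its upper end. In that library, sqet31Et at 72 hpf, the class of at least 2500 genes drew much of its hbae3 from a few barcodes described below. The 710 barcodes left without them carried 0.189 hbae3 UMIs each and 13 alas2 UMIs in all. Droplets that were not called as cells were not analysed here.

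Stage was then compared in library sums, where 72 hpf over 48 hpf is positive. Over all barcodes the log2 difference was 0.26 (SE 0.80, edgeR adjusted p 0.87) for alas2, 1.14 (SE 0.90, adjusted p 0.46) for hbae3 and 1.15 (SE 0.85, adjusted p 0.43) for the beta-type globin. None of the 3 was called, while 13.2% of the 19016 genes tested were. These values averaged 72 hpf libraries that lay on both sides of 48 hpf, and leaving out either of them changed the outcome. Without sqet33mi59BEt at 72 hpf all 3 were lower at 72 hpf, by -2.20, -1.80 and -1.49 with adjusted p of 0.012, 0.0072 and 0.023. Without sqet31Et at 72 hpf all 3 were higher, by 1.13, 2.03 and 2.02 with adjusted p of 0.040, 0.0019 and 0.0046.

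In the annotated cells alone alas2 stood at 1.65 and 2.99 CPM at 48 hpf, and at 1.64 and 10.2 CPM at 72 hpf. The log2 differences were 1.00 (SE 0.75, edgeR adjusted p 0.48) for alas2, 2.41 (SE 1.26, adjusted p 0.31) for hbae3 and 2.42 (SE 1.09, adjusted p 0.25) for the beta-type globin, where 6.24% of 17026 genes were called. Leaving out sqet33mi59BEt at 72 hpf turned these to -0.61, -1.57 and -0.79.

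In the Erythrocytes cells the log2 differences were 0.80 (SE 0.64, edgeR adjusted p 0.86) for alas2, 1.44 (SE 0.61, adjusted p 0.42) for hbae3 and 1.58 (SE 0.54, adjusted p 0.18) for the beta-type globin, where 3.55% of 2649 genes were called, 1.96% as higher and 1.59% as lower. The CPM of the beta-type globin, 3394 and 4254 at 48 hpf and 6808 and 14237 at 72 hpf, did not overlap between stages, and the gene was higher in every alternative, with adjusted p from 1.9e-06 to 0.92. It passed the threshold in DESeq2 (1.58, adjusted p 0.027) and without either 72 hpf library (1.95 without sqet31Et and 1.19 without sqet33mi59BEt). The hbae3 values of 4776, 6789, 6362 and 23178 CPM did overlap. Of the 1588 UMIs of the beta-type globin in sqet31Et at 72 hpf, 658 came from a single barcode, and 930 remained without it. No fit was run without that barcode, and this library alone stood for 72 hpf in the fit that gave 1.19.

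In endothelial cells the differences were -0.04 (SE 0.54, edgeR adjusted p 0.97), 2.05 (SE 0.98, adjusted p 0.22) and 2.24 (SE 0.90, adjusted p 0.15) for alas2, hbae3 and the beta-type globin, where 8.47% of 12453 genes were called. Left without a filter on low counts, the fit called hbae3 (1.96, adjusted p 1.3e-08) and the beta-type globin (2.15, adjusted p 4.0e-10). Without sqet33mi59BEt at 72 hpf both globins were lower at 72 hpf in endothelial cells (-1.95, adjusted p 4.4e-04, and -1.20, adjusted p 0.0082), and without sqet31Et at 72 hpf both were higher (2.98, adjusted p 4.3e-10, and 3.15, adjusted p 3.7e-11). The difference of the stage effects, Erythrocytes minus endothelial cells, was 0.78 (SE 0.88, adjusted p 0.89), 0.68 (SE 0.45, adjusted p 0.75) and 0.55 (SE 0.44, adjusted p 0.81), and 0.321% of 9981 genes were called in it, 0.21% as higher and 0.11% as lower. In this fit, added after the values had been seen and run without alternatives, the stage differences of the globins were not distinguishable between the clusters. It averaged 72 hpf libraries that lay far apart. For hbae3, sqet31Et and sqet33mi59BEt stood at 61.0 and 2251 CPM in endothelial cells, against 6362 and 23178 CPM in Erythrocytes.

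Over all barcodes the list of erythroid regulators differed by stage, even though the 3 genes were not called. Of the 12 erythroid regulators, 7 were higher at 72 hpf, against 8.17% of all genes tested in that direction. They included gata1a, the transcription factor of red cell fate (3.15, SE 0.49, edgeR adjusted p 0.0061), the erythropoietin receptor epor (4.26, SE 0.81, adjusted p 0.013) and hemgn (2.72, SE 0.70, adjusted p 0.039). The median log2 difference of that list was 1.79, against 0.03 over all genes. In heme synthesis 1 of 8 genes was higher (urod, 1.58, SE 0.38, adjusted p 0.032), and in iron and heme transport 1 of 8 (steap3). Among membrane genes and enzymes 1 of 8 was higher (rhag, an ammonia channel) and 1 was lower (sptb, the erythroid beta spectrin). With 1 of 8 higher in each, these lists lay near the 8.17% of all genes. In the annotated cells 5 of the 12 regulators were higher at 72 hpf, where 4.65% of all genes were called in that direction. These counts leaned on 1 library: without sqet33mi59BEt at 72 hpf, 2 regulators were called higher over all barcodes and 1 in annotated cells. The call of gata1a remained in every alternative run, whereas those of hemgn (0.92, adjusted p 0.084) and epor (3.14, adjusted p 0.053) over all barcodes were lost without that library, and urod, steap3 and sptb each lost theirs without some library.

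The hemoglobin-rich barcodes held a varying share of the UMIs of the 7 regulators that were higher at 72 hpf. For gata1a it was 78.6% and 90.3% at 48 hpf, against 2.76% and 9.96% at 72 hpf. For klf1 the shares were 91.8% and 86.4%, then 5.82% and 34.3%, and for hemgn 93.4% and 91.4%, then 13.7% and 58.2%. For epor, with at most 80 UMIs per library, they were 66.7% and 60%, then 3.92% and 40%. These 4 regulators did not overlap between stages, whereas 2 others did. For lmo2 the shares were 7.59%, 6.84%, 1.13% and 19.1% in the order of libraries, and for tal1 5.80%, 3.61%, 0.781% and 5.48%. For nfe2 they were 35.4%, 18.75%, 3.42% and 18.6%, almost equal in sqet33mi59BEt at both stages. The carbonic anhydrase cahz, with 95.1%, 93.3%, 63.8% and 85.7%, showed shares close to those of alas2. This division was looked at after the values had been seen, and the 7 regulators had been picked by their stage difference in the same libraries. No share over all genes is given beside the counts without overlap, so these are a description.

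**Figure D5:**
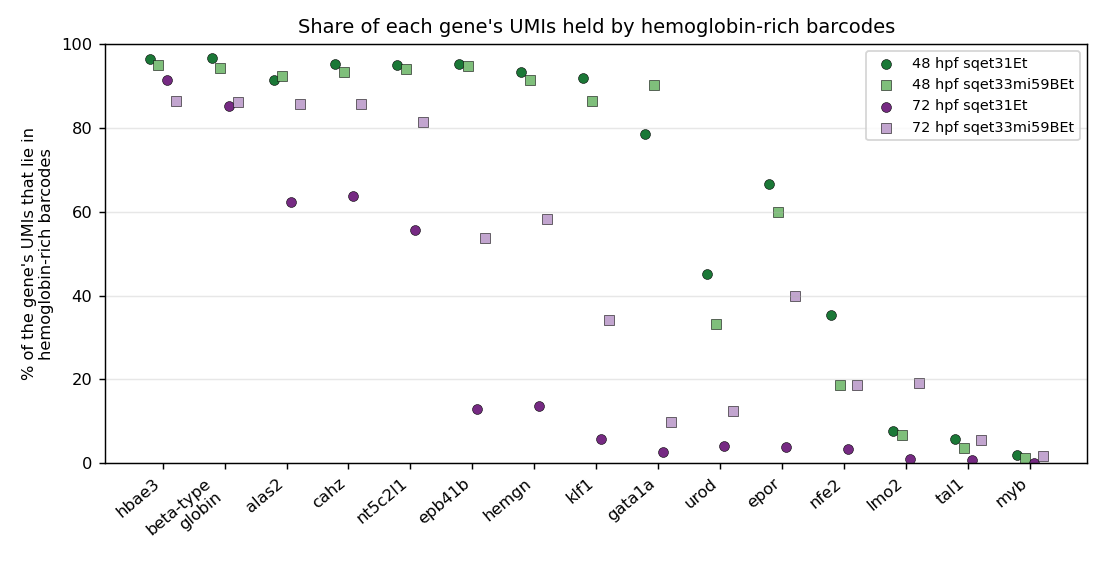
Percent of the UMIs of each of 15 genes that lay in hemoglobin-rich barcodes, with 1 point per library. The points of alas2 lie between 62.4% and 92.4%, those of gata1a at 78.6% and 90.3% for 48 hpf and 2.76% and 9.96% for 72 hpf, and those of lmo2 between 1.13% and 19.1%.

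The makeup of the hemoglobin genes was compared as the share of each in all hemoglobin UMIs. Of all hemoglobin UMIs hbae3 took 20.1% and 25.4% at 48 hpf and 26.4% and 33.4% at 72 hpf. The beta-type globin took 15.6% and 13.5%, then 21.3% and 21.6%. Neither gene's stages overlapped (exact permutation p 0.33, the smallest possible). This was not particular to them. Among the 11 hemoglobin genes with over 100 UMIs, 4 had a higher share at 48 hpf without overlap. At 72 hpf 3 did, these genes among them. The share of all genes without overlap is not given here, so these counts are a description. Shares of the same total also move against each other. The widest gap was that of hbbe3, another beta-type embryonic globin, with 9.08% and 6.42% at 48 hpf and 0.264% and 0.0915% at 72 hpf.

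In CPM over all barcodes, hbbe3 was 1474 and 813 at 48 hpf and 10.6 and 44.9 at 72 hpf, a log2 difference of -5.64 (SE 0.68, edgeR adjusted p 0.0023), and it was the only one of 11 tested hemoglobin genes that was called. It was also lower at 72 hpf in Erythrocytes (-4.76, SE 0.62, adjusted p 1.7e-04) and in endothelial cells (-4.70, SE 0.47, adjusted p 1.7e-04), where hbbe3 stood at 77.5, 68.1, 1.5 and 6.56 CPM. A further beta-type globin, ENSDARG00000045143, was higher at 72 hpf in the same clusters (3.29, SE 0.58, adjusted p 0.0023 in Erythrocytes and 3.92, SE 1.03, adjusted p 0.041 in endothelial cells). In endothelial cells that gene stood at 0.10 (adjusted p 0.86) without sqet33mi59BEt at 72 hpf, where its CPM of 15.5 and 13.3 at 48 hpf faced 16.97 and 553 at 72 hpf. The globin genes called by stage in endothelial cells were thus the ones called in the Erythrocytes cells, in the same directions.

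Across the 18 clusters, the genes whose log2 mean CPM was most like that of hbae3 were the beta-type globin (Pearson's r 0.996), ENSDARG00000087390 (0.991) and ENSDARG00000045143 (0.980), among 19843 genes. For the beta-type globin they were hbae3 (0.996), ENSDARG00000087390 (0.994) and ENSDARG00000045143 (0.983). For alas2 the likeness was lower, with hbae1.2 at 0.858, ENSDARG00000045143 at 0.852 and ENSDARG00000087390 at 0.845. The clusters share libraries, depth and the globin found in every cell type, so these values are a description of how the genes lay over clusters.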

How the data were processed

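Libraries were prepared by the study's authors with a droplet 3′ kit, and reads were counted with Cell Ranger 3.1.0 (bcl2fastq 2.19.0.316) on GRCz11 with the protein-coding genes of Ensembl 100. The deposited matrices hold raw UMI counts per gene and barcode. The authors' cell annotation, a deposited table of other kind, gives the cluster (Seurat 4.0.1, 30 components, resolution 1.5) per barcode. The hemoglobin percent and the mitochondrial percent, the latter over 13 genes, were computed here from the counts. Deposited embedding scores were not used. The authors kept barcodes of 200 to 2500 genes with under 30% mitochondrial and under 10% hemoglobin UMIs. Their doublet mark is set on every barcode that was not kept, so doublets could not be separated.

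Counts were summed per library and group of barcodes (at least 10 barcodes) and fitted in edgeR 4.0.16 (R 4.3.3; TMM, filterByExpr, quasi-likelihood test, Benjamini-Hochberg adjustment over all genes tested, threshold 0.05). All 3 genes passed the filter in each stage fit. For the comparison of hemoglobin-rich with other barcodes, the 16 hemoglobin identifiers (9 with a zebrafish symbol, 7 under a shared human symbol) were removed first. Thinning drew 500 UMIs per barcode at random. Levels by cluster carry no test. Symbols were found for 23608 of 25434 identifiers. Of the listed genes, 8 of 10 names of heme synthesis, 8 of 11 of iron transport, 12 of 12 regulators and 8 of 13 of the membrane list were matched. The named genes were the 3 genes, the hemoglobin genes and up to 3 called genes with the largest difference per list and direction, with exceptions named. The genes, lists and limits were chosen with earlier results of these data known. Alternatives were other normalizations and filters, DESeq2 1.42.0, thinned counts, line as a block, other hemoglobin limits and leaving out each library. The fits were tested on simulated data. Sequences and coordinates are not given here.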

Additional observations from a re-analysis of the deposited data

How the results depend on the processing

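The alas2 difference of 9.85 between hemoglobin-rich and other barcodes kept its direction and call under every alternative run, from 9.27 to 10.56. The count of genes called there, 1817, was 573 with no replicate block, 2892 at a 20% limit and 1049 to 1884 without each library. Over all alternatives to the values that answer a comparison, 152 were labelled the same, 24 moved, 14 reversed and 15 passed the threshold. The label had unlike rules: sign and call for a gene, size for a count of genes, and spread for a cluster share. For the permutation results no p below 0.33 was possible, so only a change of sign could show. The tally is therefore no measure of how robust the results are.

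Leaving out each library in turn moved the difference in hemoglobin-rich share from -0.48 to 7.13 points. Over all barcodes it gave 1644 to 2453 called genes (2507 in full), -2.20 to 1.13 for alas2, -1.80 to 2.03 for hbae3 and -1.49 to 2.02 for the beta-type globin. In annotated cells it gave 388 to 954 genes (1063 in full), -0.61 to 1.77, -1.57 to 3.36 and -0.79 to 3.34. In Erythrocytes it gave 115 to 174 genes (94 in full), 0.49 to 2.05 for hbae3 and 1.19 to 1.95 for the beta-type globin. In endothelial cells it gave 595 to 1858 genes (1055 in full), -0.85 to 0.61 for alas2, -1.95 to 2.98 for hbae3 and -1.20 to 3.15 for the beta-type globin. Where a stage was left with 1 library, that library was assumed to vary like the others.

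Line as a replicate block gave 3704 genes over all barcodes, 1718 in annotated cells, 141 in Erythrocytes and 1542 in endothelial cells, and turned alas2 over all barcodes to -0.50. A line is a transgenic background shared by 1 library of each stage, and no other pairing of these libraries is given. Deviations of its libraries from their stage means had r of 0.131, 0.123, 0.0745 and 0.0511 in these sums. With 2 libraries per stage both lines give the same r, so each sum has 1 value. DESeq2 called 1673 genes in annotated cells, gave 1.58 for the beta-type globin in Erythrocytes and 0.019 for alas2 in endothelial cells, where totals without TMM gave 0.24. Thinned counts gave 1326, 37 and 356 genes over all barcodes, in Erythrocytes and in endothelial cells, and alas2 was then too low to test in both clusters. Without a filter 199 genes were called in Erythrocytes and 1962 in endothelial cells, where hbae3 was 1.96 and the beta-type globin 2.15.

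The mean share of Erythrocytes with alas2, 3.10%, was 0.383% at a minimum of 2 UMIs and 1.72% after thinning, and that of endothelial cells, 0.851%, was 0.0918% and 0.138%. For hbae3 and the beta-type globin in Erythrocytes, 92.6% and 87.3% became 79.8% and 71.3% at 2 UMIs. With 2 libraries per stage, which differ in line and depth, and few alas2 UMIs per cluster, stage differences smaller than the spread between libraries of a stage were not detectable.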

Other observations

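At 72 hpf most transcripts of gata1a lay outside the hemoglobin-rich barcodes, in barcodes looked at after the values had been seen. Barcodes outside the hemoglobin-rich group with at least 2 UMIs of gata1a numbered 106 in sqet31Et and 93 in sqet33mi59BEt at 72 hpf, against 2 and 0 at 48 hpf. Their median depths of 22538 and 11874 UMIs were far above the library medians of 1479 and 960, and a minimum of 2 UMIs favours deep barcodes. A UMI of myb, a transcription factor of blood progenitors, was present in 91.5% and 81.7% of them, against 3.88% and 5.62% of all barcodes of those libraries. Of the 106 and 93 barcodes 69 and 59 held hemgn and 57 and 30 held klf1, but 9 and 4 held alas2.

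These barcodes had 6.26 and 4.06 alas2 CPM, on 15 and 4 UMIs. The other unnamed barcodes of at least 2500 genes, with median depths of 16382.5 and 16304 UMIs, had 0.551 and 1.93 CPM, on 7 and 5. Of the barcodes with gata1a, 11 and 79 held a UMI of hbae3 and 32 and 69 one of the beta-type globin. The 79 made up 84.9%, beside 89.0% of all barcodes of that library. The median barcode with gata1a held 0 UMIs of either globin in sqet31Et and 2 of each in sqet33mi59BEt. Barcodes with gata1a carried 3.39 and 2.97 hbae3 UMIs each, against 0.193 and 7.97 in the other unnamed barcodes of at least 2500 genes. For the beta-type globin the values were 20.4 and 3.76 against 0.227 and 4.95. In sqet31Et a single barcode with gata1a held 178 of the 359 hbae3 UMIs, and a single barcode 1002 of the 2163 UMIs of the beta-type globin. In 76 and 64 of the barcodes with gata1a no cluster name was given, and 73 and 28 had at least 2500 genes. The part of doublets and depth was not tested.

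A small number of barcodes held the beta-type globin with little hbae3. Among the 2462 barcodes with at least 20 UMIs of these globins, 14 had an hbae3 share under 20%, 1 and 2 at 48 hpf and 6 and 5 at 72 hpf. Of the 14, 10 held hemgn, 3 had a cluster name and 1 was hemoglobin-rich. At 72 hpf the 6 and 5 barcodes held 390 and 83 UMIs of hbae3 against 2765 and 783 of the beta-type globin, with 14 and 7 UMIs of alas2. In sqet31Et at 72 hpf 5 of them accounted for most of the beta-type globin in the unnamed barcodes of at least 2500 genes, whose level was 3.22 UMIs per barcode with them and 0.272 without.

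In the same library some cells of other clusters carried hemoglobin of another makeup. Cells with at least 10 hemoglobin UMIs numbered 9 in the Hematopoietic precursor cluster, 5 in Leukocytes and 5 in Proliferating cells, and hbae1.1 and hbae1.2 together took 75.0%, 67.3% and 77.9% of their hemoglobin UMIs. In these cells 2, 0 and 2 UMIs of hbae3 were counted. Selected in the same way, endothelial cells held 9 UMIs of hbae1.1 and hbae1.2 among 75 of hemoglobin, and in Erythrocytes they took 13.5%. The hemoglobin UMIs of the 9, 5 and 5 cells summed to 104, 214 and 122, with at most 15, 80 and 42 in a single cell. In sqet33mi59BEt at 72 hpf hbae1.1 and hbae1.2 took 10.7%, 21.0% and 6.62% in 63, 15 and 251 cells of the same clusters.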
